A study of Sus scrofa with 85 samples.

Results

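Gene expression in the infarcted region of the pig heart was compared between 1–3 h after the start of coronary occlusion and baseline. The members were micro-endomyocardial biopsies (micro-EMB), thin catheter samples of the inner left ventricular wall, sequenced as total RNA. Of 85 libraries in the series, 13 were members. These were 9 apical libraries labelled 1–3 h and 4 apical libraries labelled baseline. A library was kept with a total count of at least 1000000 and with 7 to 60% of its counts in its 10 most counted genes. Of 11 and 6 libraries of these groups, 2 and 2 did not meet the rule.

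The study occluded the distal left anterior descending artery of 3 female farm pigs with a balloon for 1 h and then reperfused it. Baseline was taken before occlusion, without a region being aimed at, although the labels call these libraries apical. The libraries of 1–3 h were taken during reperfusion from tissue presumed to be ischaemic or infarcted, and the study names imprecise sampling of that region as a limit. Both groups came from the same 3 animals (swine 1640, 1644 and 5385), which were anaesthetised, received the anti-arrhythmic drug amiodarone and were biopsied repeatedly. Time, anaesthesia, catheter work and ischaemia therefore cannot be told apart. Baseline held 1, 1 and 2 libraries of swine 1640, 1644 and 5385, and 1–3 h held 3 of each. Libraries of 1 animal were treated as replicates, so p-values measure the spread between biopsies more than that between animals.

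Ischaemia followed by reperfusion is known to switch on immediate early genes, which encode transcription factors and need no new protein for their induction. Their products and the kinases upstream of them then switch on cytokines, chemokines and regulators of clotting. Heat shock proteins are induced as well. Heart muscle cells, fibroblasts and endothelial cells can all mount this response. In a bulk biopsy, fewer cells of a type and less RNA per cell cannot be told apart.

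The 13 libraries held 5886133 to 16659110 counts. The baseline library of swine 1644 and 1 of its libraries of 1–3 h stood apart. Their summed level of cardiomyocyte markers was 111.4 and 56.0 CPM (counts scaled to a library total of 1000000), against 5448 to 28190 CPM in the other 11 libraries, with MYL2, MYL3, TNNT2, ACTC1, ACTN2 and RYR2 as the markers tested. Their summed fibroblast markers were 33180 and 95890 CPM, against 1133 to 23740 CPM in the others. These 2 libraries are called fibrous here. Of 43 markers of 8 cell types tested, 0 were called in edgeR. An unadjusted p under 0.05 was found for 2 of them, against 3134 of all 17929 genes tested. Summed neutrophil markers were 0.648 to 4.51 CPM at baseline and 1.10 to 38 CPM at 1–3 h, with 3 of 8 markers tested. Summed erythroid markers were 4237 to 8417 CPM in all 5 libraries of swine 5385, at both timepoints, and 9.47 to 67.9 CPM in the others. Of all 15029 genes with a symbol, 1036 were listed at 0 in every library of the series. Of 381 list and marker genes found in the table, 29 were. They included CRYAB, a small heat shock protein abundant in heart muscle, and JUNB, MCL1, SOCS3, IL6 and ANKRD1. A value of 0 in this table is therefore not read as absence.

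Expression changed in both directions at 1–3 h. Of 17929 genes tested with edgeR's quasi-likelihood test, 291 had an adjusted p of 0.05 or less, or 1.62%. Lower levels at 1–3 h were found for 140 genes (0.781% of those tested), and the rest were raised (0.842%). The log2 fold changes (log2FC) of raised genes had a median of 2.10 and ran from 0.78 to 8.32. Those of lowered genes had a median of −1.29 and ran from −3.27 to −0.76. More than 2 log2 units separated the timepoints in 84 raised and 10 lowered genes. The median over all genes was 0.12. With size factors in place of TMM scaling, 343 genes were called, of which 65.6% were raised, against 51.9% with TMM. The balance turned to lowered genes with library totals alone (344 genes, 43.9% raised) and with voom (337 genes, 44.2% raised).

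The count of genes depended strongly on single libraries and on the tool. Leaving out any 1 of the 4 baseline libraries, fibrous or not, left 8 to 36 genes in edgeR. A fit without the 2 fibrous libraries also loses 1 baseline library. The 2 effects on which genes pass, here and below, cannot be told apart. Without the 2 fibrous libraries, 20 genes passed in edgeR and 765 in DESeq2. All raised genes and all but 1 of the 140 lowered genes, PTGR1, then kept their direction, with medians of 1.98 and −1.09. The genes were chosen with most of the same libraries, so this is no sign of stability. With all libraries, DESeq2 called 1423 genes (7.94%), which included 287 of the 291. Swine as a block gave 224 genes (1.25%). A fit of the 13 libraries alone called 0 genes in edgeR, with 2385 genes at an unadjusted p under 0.05. Adjusted p-values given for single genes below are those of the edgeR fit with all 29 apical libraries. Of 73 genes named as raised or lowered, 11 still passed in edgeR without the fibrous libraries. In DESeq2 66 did, and KCNH4 was given no adjusted p. In edgeR no gene list then held a raised member, and TP53INP1 was the 1 lowered member.

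**Figure D1:**
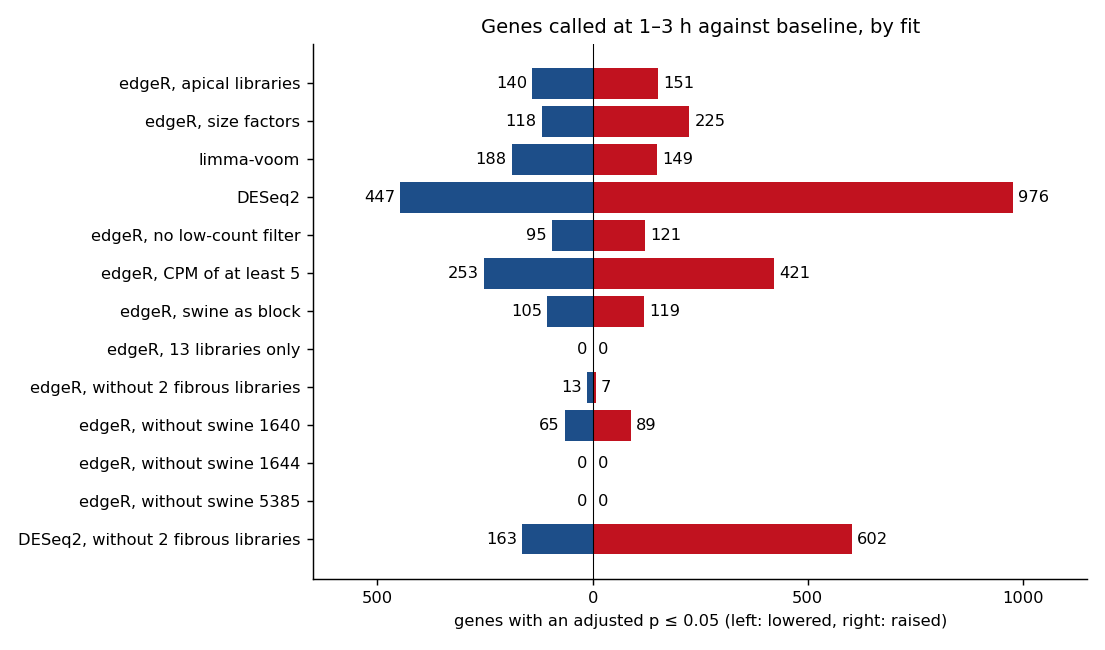
Number of genes with an adjusted p of 0.05 or less in each fit (horizontal axis), with lowered genes to the left of 0 and raised genes to the right. The edgeR fit of 29 apical libraries called 291 genes, of which 140 were lowered, DESeq2 called 447 lowered and 976 raised genes, and edgeR called 0 when swine 1644 or swine 5385 was left out.

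The change was seen in all 3 animals. Each raised gene was higher at 1–3 h in swine 1640, in swine 1644 and in swine 5385. Of the 140 lowered genes, all but 3 were lower in all 3. Over all genes tested, 42.2% had the same sign in all 3 animals. These genes were chosen in the same libraries, so the counts describe them and test nothing. The median difference of the raised genes was 1.17 log2 units in swine 1640, 1.94 in swine 1644 and 2.40 in swine 5385. For the lowered genes it was −0.83, −1.62 and −1.24. Swine 1640 thus had the smallest median in both directions. The 1 baseline library of swine 1644 was the fibrous one. In its differences, here and below, a change over time and a difference in the tissue sampled cannot be told apart. A test of whether the change differed between animals called 0 of 18195 genes in edgeR, with 662 at an unadjusted p under 0.05, and 59 in DESeq2. With 1, 1 and 2 baseline libraries in the animals, it could miss large differences, so the 0 does not show that the animals were alike. Across all genes tested, differences of 2 animals correlated with Pearson's r of 0.29 to 0.30 and Spearman's rho of 0.27 to 0.30. Genes of 1 library are not independent, and no p is given.

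Biopsies of 1 animal also differed. Relative to the baseline mean, the median level of the raised genes was 0.70, 2.09 and 1.023 log2 units higher in the 3 libraries of swine 1640. It was 1.37, 2.00 and 2.59 higher in those of swine 1644 and 2.09, 2.15 and 2.56 higher in those of swine 5385. The library at 0.70 had the lowest value of the 9 for 80 of the raised genes. The fibrous library of 1–3 h, at 2.59, had the highest for 62. For the lowered genes the 9 libraries were more alike, at −1.48 to −0.77. The fibrous baseline library held the highest of the 4 baseline values for 51.4% of the lowered genes, against 32.5% of all genes.

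**Figure D2:**
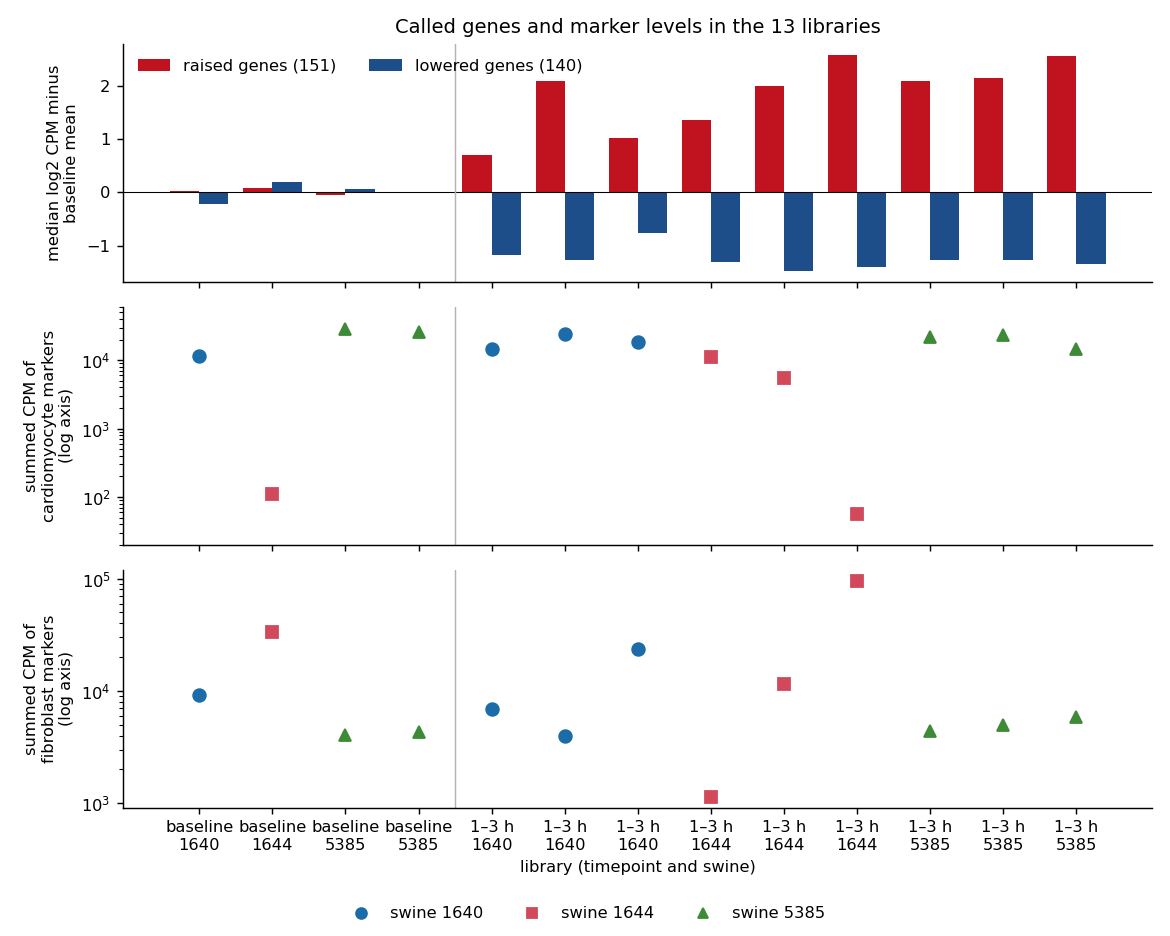
Top, median over the raised and over the lowered genes of each library's log2 CPM minus the mean of the 4 baseline libraries. Middle and bottom, summed CPM of cardiomyocyte and fibroblast markers on log axes. All 9 libraries of 1–3 h lie above 0 for raised genes (0.70 to 2.59) and below 0 for lowered genes, and the 2 fibrous libraries of swine 1644 have 111.4 and 56.0 CPM of cardiomyocyte markers.

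Levels are given as CPM after TMM scaling, with baseline in the order swine 1640, 1644, 5385 and 5385, and with the lowest, median and highest of the 9 libraries of 1–3 h. Immediate early transcription factors were the list with the highest median, 2.88 over 25 genes tested. All 25 had a higher mean at 1–3 h, 6 were raised in edgeR and 20 in DESeq2. Over all genes tested, 55.8% had a higher mean, 0.842% were raised in edgeR and 5.44% in DESeq2, and 0.781% and 2.49% were lowered. An unadjusted p under 0.05 was found for 3134 of the 17929 genes tested. The counts of each list below stand against these shares.

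MYC, a transcription factor of cell growth and ribosome production, was at 7.73, 14.1, 1.51 and 5.53 CPM at baseline. At 1–3 h it was at 25.3, 163.96 and 372 CPM. The groups did not overlap, and log2FC was 4.42 ± 1.05 (SE, adjusted p = 0.0357). The gene lies at chr4:12455141-12460360 on the minus strand of Sscrofa11.1. FOSL1, a FOS family partner in the AP-1 factor, was at 0.347, 0.153, 0 and 0 CPM at baseline and at 2.10, 54.9 and 191 CPM at 1–3 h. It had the largest log2FC of the genes called, 8.32 ± 1.88 (adjusted p = 0.0271). Its baseline level rests on 9 counts over 4 libraries, so the size of the change is imprecise.

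ATF3, a stress-induced repressor of the ATF family, was at 15.7, 8.25, 20.5 and 22.4 CPM at baseline. It rose to 38.3, 197 and 1017 CPM, with a log2FC of 4.44 ± 1.07 (adjusted p = 0.0358). CSRNP1, a nuclear protein induced by AXIN1, rose from 5.18–9.16 CPM to a median of 114.6 CPM (log2FC 3.88 ± 0.93). KLF6, a Krüppel-like factor, rose less, from 32.8–57.0 CPM to a median of 176.7 CPM (2.23 ± 0.50), and its groups overlapped. MAFF, a small MAF factor of the stress response, rose by 4.98 ± 1.27 and its groups did not overlap. MAFF, FOS, FOSB and EGR1 were named after their values were seen. FOS, FOSB and EGR1 lay above every baseline library in all 9 libraries of 1–3 h, but did not pass in edgeR. EGR1 was at 28.7 to 59.4 CPM at baseline and 75.8 to 705 CPM at 1–3 h (adjusted p = 0.0786). FOSB had a log2FC of 5.81 ± 1.83 (adjusted p = 0.0878) and FOS 3.29 ± 1.13 (adjusted p = 0.111).

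**Figure D3:**
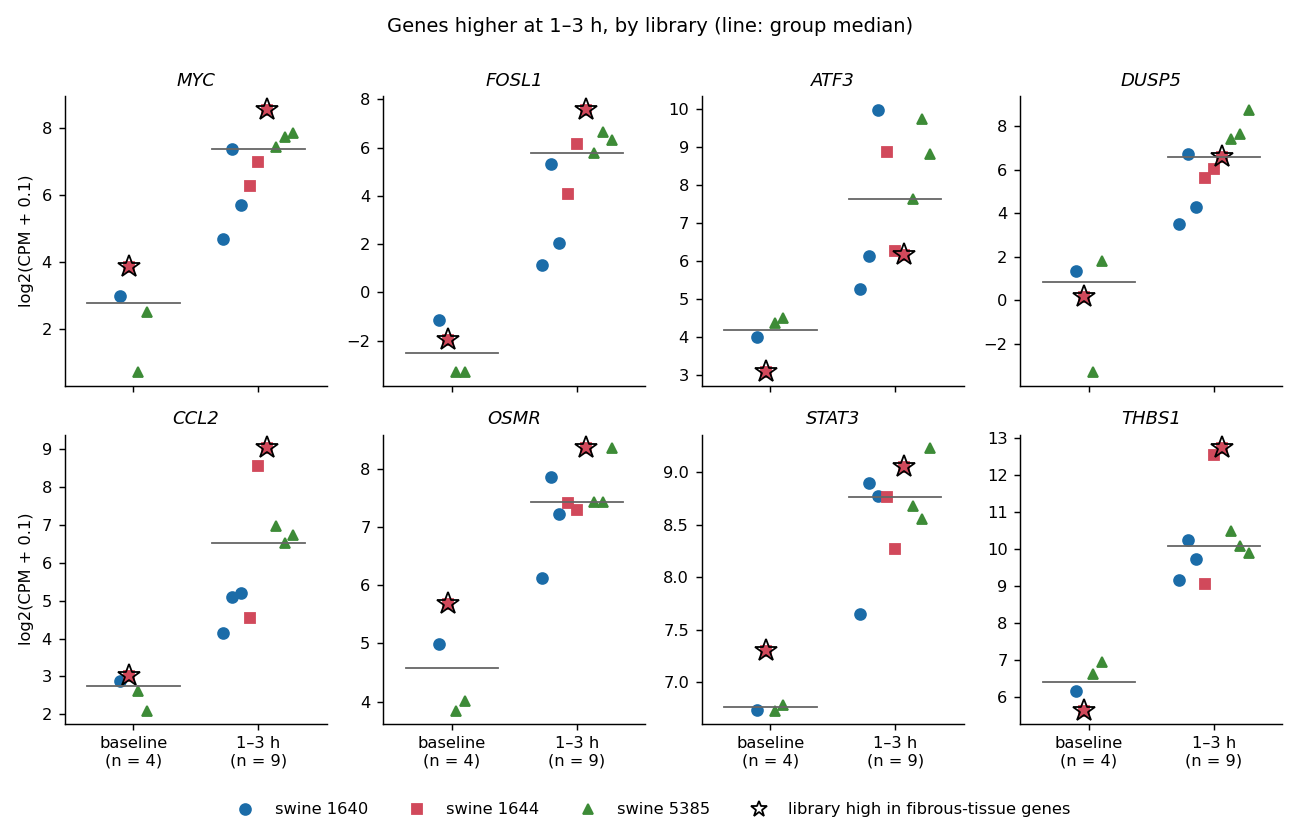
Level of 8 raised genes in each library, as log2(CPM + 0.1), at baseline (n = 4) and 1–3 h (n = 9). Colours and shapes mark the swine, stars mark the 2 fibrous libraries, and lines mark group medians. No library of 1–3 h lies below a baseline library in these 8 genes, and the spread at 1–3 h exceeds that at baseline for THBS1, with 528 to 6796 CPM against 49.3 to 122.2 CPM.

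Feedback inhibitors of MAP kinase signalling and ligands of the EGF receptor had a median log2FC of 1.68 over 16 genes tested. In edgeR 2 were raised, DUSP5 and HBEGF, and in DESeq2 7. DUSP5, a nuclear phosphatase that switches off ERK kinases, was at 2.43, 0.993, 0 and 3.35 CPM at baseline. It was at 11, 95.9 and 436 CPM at 1–3 h, with no overlap and a log2FC of 6.19 ± 1.40 (adjusted p = 0.0271). HBEGF, a heparin-binding EGF receptor ligand, rose from 1.76–8.57 CPM to a median of 59.0 CPM (3.503 ± 0.90, adjusted p = 0.0422). ERRFI1, an inhibitor of the EGF receptor, had a log2FC of 4.47 ± 1.31 with groups that did not overlap, and did not pass (adjusted p = 0.0699). SPRED1, an inhibitor of RAS signalling, had 1.76 ± 0.49 (adjusted p = 0.0595).

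Promoter sequence is shown for DUSP5, EIF4E and MXD4, because they hold the serum response element core or the site of MYC-type factors. Each sequence is the 250 bases before the RefSeq gene start in Sscrofa11.1, read on the gene's strand. They lie at chr14:120906090-120906339 (plus strand), chr8:121409383-121409632 (plus strand) and chr8:1216808-1217057 (minus strand). Capitals mark 2 adjacent CArG boxes in DUSP5 and 1 E-box in each of the others.
DUSP5: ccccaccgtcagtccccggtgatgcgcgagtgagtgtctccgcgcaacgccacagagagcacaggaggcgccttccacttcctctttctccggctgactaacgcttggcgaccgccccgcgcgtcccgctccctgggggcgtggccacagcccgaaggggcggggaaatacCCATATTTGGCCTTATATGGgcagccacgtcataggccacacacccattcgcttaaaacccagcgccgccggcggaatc
EIF4E: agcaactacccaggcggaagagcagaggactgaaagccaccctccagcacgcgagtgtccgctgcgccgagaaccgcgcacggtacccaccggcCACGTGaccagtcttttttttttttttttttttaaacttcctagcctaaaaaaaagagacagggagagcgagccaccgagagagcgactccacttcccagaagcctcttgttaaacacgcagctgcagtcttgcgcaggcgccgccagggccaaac
MXD4: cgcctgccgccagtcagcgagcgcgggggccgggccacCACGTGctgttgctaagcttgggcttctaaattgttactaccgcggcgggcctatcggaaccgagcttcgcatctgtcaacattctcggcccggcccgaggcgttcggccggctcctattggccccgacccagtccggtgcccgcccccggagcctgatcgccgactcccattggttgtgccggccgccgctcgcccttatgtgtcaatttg

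Windows of 250 bases before to 50 after the start were searched on both strands in 92.5% of raised, 97.4% of lowered and 92.3% of all tested genes with a symbol. The CArG box was found in 3.25% of raised, 1.75% of lowered and 1.37% of all promoters, and the 3.25% are 4 genes. The E-box CACGTG was found in 12.2%, 13.2% and 8.99%. The CRE TGACGTCA was found in 2.44%, 0.0% and 2.77%, the AP-1 site TGANTCA in 4.07%, 3.51% and 4.99%, and the heat shock element GAANNTTC in 5.69%, 5.26% and 5.85%. No test was made of these shares, and a match does not show binding.

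Chemokines and cytokines had a median log2FC of 1.61 over 12 genes tested, and 2 were raised in edgeR and 5 in DESeq2. CCL2, the chemokine that draws monocytes, was at 7.29, 8.02, 6.05 and 4.19 CPM at baseline. It was at 17.7, 92.4 and 522 CPM at 1–3 h, above baseline in all 9 libraries (log2FC 4.52 ± 1.01, adjusted p = 0.0269). Its 2 highest values came from swine 1644, and without the fibrous libraries its log2FC was 4.07 (adjusted p = 0.0930). CXCL2, a chemokine for neutrophils, rose by 1.60 ± 0.42 (adjusted p = 0.0469), with overlapping groups. CSF1, a growth factor of macrophages, had 1.63 ± 0.59 (adjusted p = 0.129). CXCL12, a chemokine made by resident stromal cells, had −0.80 ± 0.52 (adjusted p = 0.428).

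Receptors of these signals had a median log2FC of 1.024 over 13 genes tested, with 2 raised in edgeR and 6 in DESeq2. OSMR, the oncostatin M receptor chain that signals through JAK kinases and STAT3, was at 31.7, 50.9, 14.3 and 16.1 CPM at baseline. It was at 70.1, 172.5 and 330 CPM at 1–3 h, with no overlap (2.80 ± 0.64, adjusted p = 0.0278). IL4R, the interleukin-4 receptor chain, rose by 2.26 ± 0.60 (adjusted p = 0.0476), and did not pass with swine as a block (adjusted p = 0.0562). LIFR and IL6ST, receptor chains for oncostatin M and related cytokines, had log2FC of 1.016 ± 0.32 (adjusted p = 0.0928) and 0.62 ± 0.24 (adjusted p = 0.161). TNFRSF1B, a tumour necrosis factor receptor, had 1.38 ± 0.46 (adjusted p = 0.104).

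Further down the same pathway, targets and feedback genes of NF-kB and STAT3 had a median log2FC of 0.98 over 22 genes. In edgeR 2 were raised, and in DESeq2 12. STAT3 itself was at 105.8 to 156.9 CPM at baseline, highest in swine 1644, and at 200.8, 434 and 602 CPM at 1–3 h. The groups did not overlap (1.81 ± 0.43, adjusted p = 0.0357). SBNO2, a STAT3-induced co-regulator, rose from 38.6–56.1 CPM to a median of 214.6 CPM (2.42 ± 0.55). Among genes on no list, named after their values were seen, JAK2, the kinase upstream of STAT3, rose by 1.80 ± 0.47 (adjusted p = 0.0433, or 0.0537 with swine as a block). IL1RAP, a chain of the interleukin-1 receptor, rose by 1.99 ± 0.50 and MAP3K8, a kinase of the same pathway, by 2.23 ± 0.55, both with no overlap. BIRC3, an NF-kB target that inhibits apoptosis, lay above baseline in all 9 libraries and did not pass (1.09 ± 0.36, adjusted p = 0.0988).

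Some regulators of clotting and of clot breakdown were higher at 1–3 h. Of 15 tested, 3 were raised in edgeR and 6 in DESeq2, with a median log2FC of 1.47. THBS1, the platelet and matrix protein thrombospondin-1, was at 71.6, 49.3, 98.7 and 122.2 CPM at baseline and at 528, 1073 and 6796 CPM at 1–3 h. The groups did not overlap. Its log2FC of 4.65 ± 1.20 (adjusted p = 0.0430) did not pass with swine as a block (adjusted p = 0.0639). PLAU, the urokinase that activates plasminogen, rose by 3.17 ± 0.71 (adjusted p = 0.0269). SERPINB2, an inhibitor of urokinase, spanned 6.52 to 946 CPM at 1–3 h and overlapped baseline (4.70 ± 1.29, adjusted p = 0.0555).

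Genes of cell death and of the p53 pathway were called in both directions. Of 21 tested, 4 were raised and 1 was lowered in edgeR, and 10 and 1 in DESeq2. CASP10, an initiator caspase of death receptors, rose from 28.3–44.1 CPM to a median of 98.9 CPM, with no overlap (1.84 ± 0.38, adjusted p = 0.0238). PHLDA2 (4.62 ± 1.04) and PHLDA1 (2.43 ± 0.56), related pleckstrin-homology-like proteins, rose. SESN2, a stress-induced inhibitor of mTORC1 signalling, rose by 2.89 ± 0.71, mainly in swine 5385, where the difference was 4.44, against 1.22 and 0.65 in the other 2. TP53INP1, a p53-induced protein of autophagy and cell death, fell. It was at 50.8, 89.7, 50.1 and 55.3 CPM at baseline and at 10.2, 14.0 and 24.3 CPM at 1–3 h. The groups did not overlap (−1.94 ± 0.30, adjusted p = 0.00488), and it passed without the fibrous libraries (adjusted p = 0.0467).

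Of 25 members of the heat shock and unfolded protein response tested, 3 were raised in edgeR and 9 in DESeq2, with a median log2FC of 0.94. HSPH1, a nucleotide exchange factor of HSP70, was at 11.2, 15.7, 18.8 and 17.4 CPM at baseline and at 21.2, 112.8 and 1557 CPM at 1–3 h. It rose by 4.35 ± 1.11 (adjusted p = 0.0423), or 0.0562 with swine as a block. BAG3, a co-chaperone of heart muscle, rose from 45.1–82.2 CPM to a median of 285 CPM (2.92 ± 0.71, adjusted p = 0.0358). HSPA4, of the same family as HSPH1, rose by 1.62 ± 0.40. HSP70.2, an inducible HSP70 gene outside the list and named after its values were seen, rose by 5.35 ± 1.36 (adjusted p = 0.0409, or 0.0613 with the block). Near-identical copies make its count uncertain, as does its place within the span of HSPA1L on the other strand. The difference of HSP70.2 was 6.15 log2 units in swine 5385 and 1.47 and 1.82 in the other 2. The constitutive HSPA8 (1.501 ± 0.51) did not pass, nor did HSP90AA1 (1.59 ± 0.50).

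Hypoxia and glycolysis genes had a median log2FC of 0.20 over 22 tested, with 3 raised in edgeR and 6 in DESeq2. HK2, the inducible hexokinase, was at 24.2, 25.5, 10.2 and 15.7 CPM at baseline and at 44.3, 74.2 and 614 CPM at 1–3 h (2.99 ± 0.76, adjusted p = 0.0419), with 0.0523 under the block. HMOX1, haem oxygenase 1, rose by 2.92 ± 0.75 and HIF1A, the hypoxia-inducible factor, by 0.94 ± 0.24. HMOX1 was at 8.13 log2 CPM in the fibrous library of 1–3 h, against 3.303 to 5.685 in the others of that time. Its log2FC was 1.98 to 3.098 when 1 library was left out. SRXN1 (5.51 ± 1.35) and TXNRD1 (1.42 ± 0.37), which reduce oxidised peroxiredoxin and thioredoxin, and BACH1 (2.26 ± 0.58), a repressor of HMOX1, were also raised and were named after their values were seen. TXNRD1 did not pass with the block (adjusted p = 0.0533). Fatty acid oxidation and PPAR target genes had a median of −0.33 over 24 tested, with 1 raised in edgeR and 2 in DESeq2, against 0.842% and 5.44% of all genes. The gene in both was PLIN2, the coat protein of lipid droplets (3.16 ± 0.81, adjusted p = 0.0429). PDK4, which inhibits pyruvate dehydrogenase, spanned 2.17 to 2615 CPM at 1–3 h (3.88 ± 1.40, adjusted p = 0.131). Its difference was 3.60, −0.39 and 5.41 log2 units in swine 1640, 1644 and 5385.

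Glucocorticoid-responsive genes had 0 of 13 called in edgeR, 6 raised in DESeq2, 11 at an unadjusted p under 0.05 and a median of 1.35. Of all 17929 genes tested, 3134 had such a p. The list shares DUSP1, CEBPD, ERRFI1, PDK4, NFKBIA and CDKN1A with lists above. A higher mean at 1–3 h was found for 11 of the 13. TXNIP, another member, was lower, with a log2FC of −1.26 to −0.85 when 1 library was left out. FKBP5, which binds the glucocorticoid receptor complex, had 1.35 ± 0.38 (adjusted p = 0.0585). ZBTB16, a zinc-finger repressor induced by glucocorticoids, had 1.45 ± 0.69 (adjusted p = 0.272), with a difference of 2.63 in swine 1640 and 0.17 and 0.06 in the others. Among 14 circadian clock genes, BMAL1, the activating subunit of the clock, rose from 27.5–33.2 CPM to a median of 84.5 CPM (1.51 ± 0.34, adjusted p = 0.0271). CRY1, a repressor of the clock, rose by 1.48 ± 0.38 (adjusted p = 0.0418), or 0.0531 under the block. Both had no overlap, while the list median was −0.20. Of the 14, 2 were raised and 0 lowered in edgeR, 7 had a higher mean and 8 an unadjusted p under 0.05. Every library of 1–3 h lay below baseline for 1 of the 14.

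**Figure D4:**
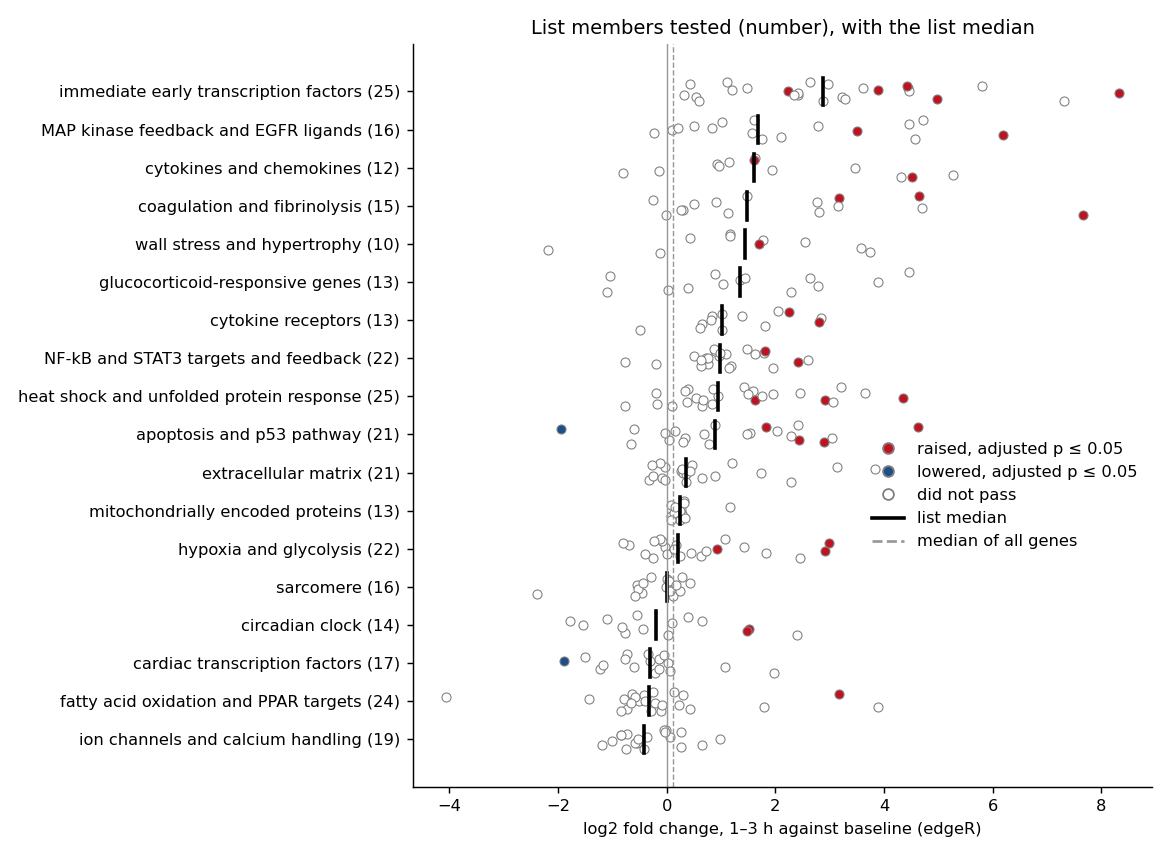
Log2FC at 1–3 h against baseline of each list member tested (points), by list, with list medians (bars) and the median of all genes, 0.12 (dashed). Filled points have an adjusted p of 0.05 or less in edgeR. Immediate early factors have the highest median (2.88), sarcomere genes lie near 0 and ion channels have the lowest (−0.41).

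Among the 12 raised genes with the smallest p, several belong to no list. RELL1, a membrane protein related to the TNF receptor RELT, was at 18.3, 21.1, 14.7 and 13.4 CPM at baseline and at 39.4, 71.0 and 165.2 CPM at 1–3 h. The groups did not overlap (2.23 ± 0.41, adjusted p = 0.0159), and it passed without the fibrous libraries. TEAD4, the transcription factor at the end of the Hippo pathway, rose from 30.9–73.9 CPM to a median of 221 CPM (2.06 ± 0.42). MSR1, the macrophage scavenger receptor, rose by 2.37 ± 0.49 with no overlap. Summed macrophage markers were 125 to 379 CPM at baseline and 71.0 to 734 CPM at 1–3 h, and their part in this result was not tested. DDAH1, which degrades an inhibitor of nitric oxide synthase, rose by 3.22 ± 0.68, with 1.08 in swine 1640 against 3.86 and 3.75 in the others. PGM2, a sugar phosphate mutase (1.96 ± 0.37), PPA1, the cytosolic pyrophosphatase (1.67 ± 0.35), and SFMBT1, a chromatin reader (2.10 ± 0.44), also rose. KCNH4, a potassium channel, rose by 5.30 ± 1.12 from 5 counts over the 4 baseline libraries. The unnamed gene ENSSSCG00000014997 rose by 1.29 ± 0.32 (adjusted p = 0.0369).

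The same group held DDX21 and GNL3, proteins of the nucleolus, where ribosomes are made. DDX21, an RNA helicase, was at 22.3, 37.4, 28.3 and 37.2 CPM at baseline and at 45.7, 135.9 and 297 CPM at 1–3 h (2.19 ± 0.45, adjusted p = 0.0238). GNL3, nucleostemin, rose from 5.06–10.1 CPM to a median of 38.9 CPM (2.22 ± 0.46). Both had no overlap and differences of 1.71 to 2.23 log2 units in every animal. EIF4E, the cap-binding factor of translation, rose by 2.15 ± 0.55 and ODC1, the first enzyme of polyamine synthesis, by 2.55 ± 0.63. Both were named after their values were seen.

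CD44, the hyaluronan receptor, and OLR1, the receptor for oxidised LDL, also rose and were named after their values were seen. CD44 rose from 15.4–36.7 CPM to a median of 219 CPM (2.99 ± 0.73) and OLR1 from 1.76–10.8 CPM to 82.4 CPM (4.35 ± 1.13). In the 3 animals the difference was 1.54, 3.44 and 3.27 log2 units for CD44 and 1.86, 4.10 and 4.97 for OLR1.

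The lowered genes had smaller changes and a smaller spread at 1–3 h than the raised genes. Their SD over the 9 libraries had a median of 0.51 log2 units, against 0.92 for raised genes. All 9 libraries lay below all 4 baseline libraries for 91 of the 140, and above for 73 of the raised genes. Over all genes these shares were 1.58% and 0.859%. Both sets were chosen by p, which a small change reaches only where the spread is small, so these values describe the sets and compare nothing else.

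The 12 lowered genes with the smallest p had no overlap between groups. MXD4, a repressor that competes with MYC for its partner MAX, was at 33.2, 49.7, 46.4 and 33.7 CPM at baseline. It fell to 9.92, 12.1 and 20.6 CPM, with −1.57 ± 0.26 (adjusted p = 0.00697). MYC and MXD4 thus moved in opposite directions, MYC by 2.91, 3.42 and 5.99 and MXD4 by −1.17, −2.13 and −1.43 log2 units in swine 1640, 1644 and 5385. PIK3IP1, an inhibitor of PI3 kinase, was at 45.6, 33.6, 44.7 and 42.9 CPM at baseline and at 6.87, 11.4 and 26.0 CPM at 1–3 h (−1.64 ± 0.28, adjusted p = 0.00798). BCL9L, a co-activator of beta-catenin, fell from 119.1–241 CPM to a median of 52.9 CPM (−1.69 ± 0.28). All 3 passed without the fibrous libraries (adjusted p = 0.0467 each).

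ELMOD3, a GTPase-activating protein for ARF-like GTPases, had the smallest p of all genes (−1.69 ± 0.26, adjusted p = 0.00488). Its baseline values were 31.5, 118.3, 30.0 and 28.96 CPM, of which the 118.3 CPM came from the fibrous library, and 11.4, 16.4 and 19.9 CPM followed at 1–3 h. Without the fibrous libraries its log2FC was −0.91 (adjusted p = 0.0467). IL17B, a cytokine of the interleukin-17 family (−1.51 ± 0.27), and CEP250, a centrosome linker (−1.33 ± 0.23), fell as well. The span of IL17B overlaps that of GRPEL2, a lowered gene on the other strand. Counting was without strand, so the parts of these neighbours in the fall cannot be told apart. PLEKHH3 (−1.48), TMEM140 (−1.58) and MSANTD4 (−1.22) are less well described. BBS1, a subunit of the BBSome that carries cargo into cilia, fell from 17.8–28.4 CPM to a median of 8.85 CPM (−1.31 ± 0.26).

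**Figure D5:**
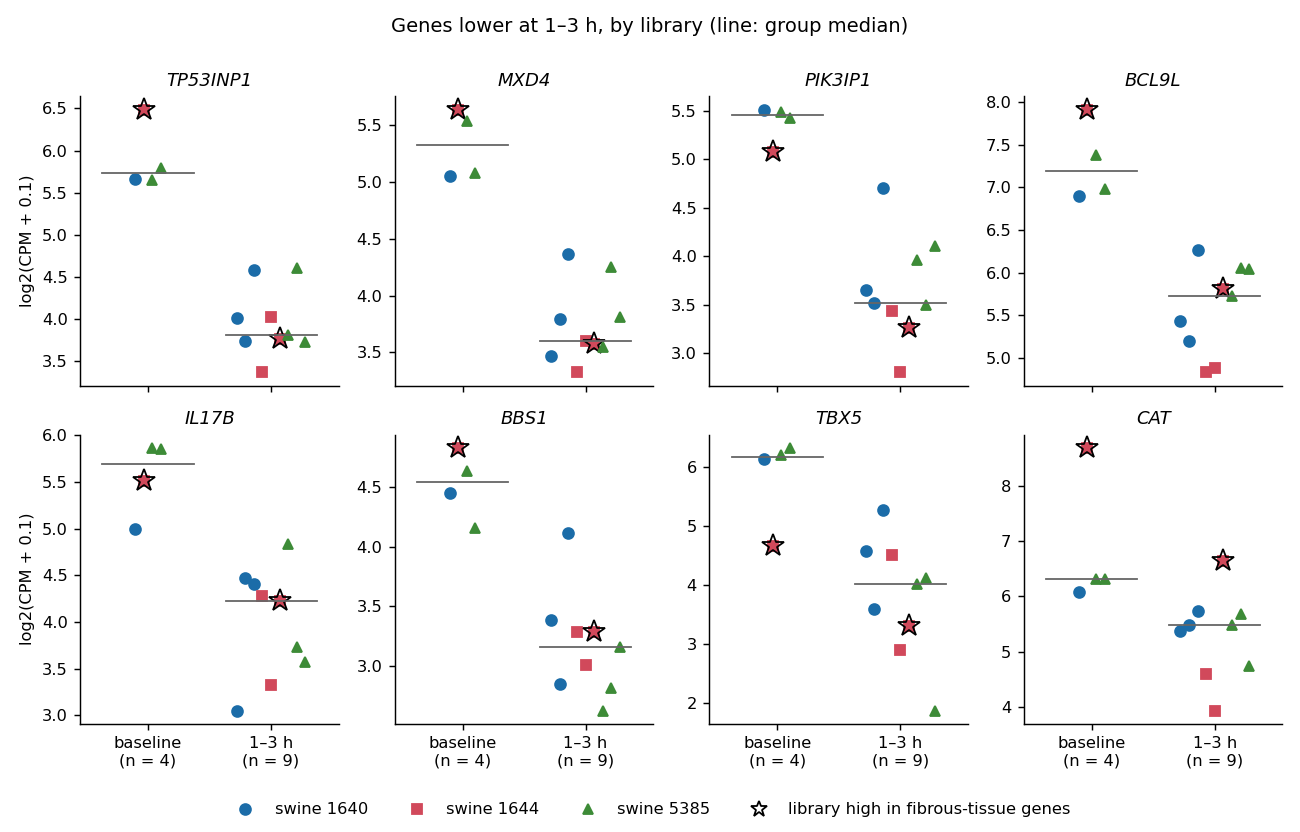
Level of 8 lowered genes in each library, as log2(CPM + 0.1), drawn as for the raised genes. All 9 libraries of 1–3 h lie below the 4 baseline libraries for TP53INP1, MXD4, PIK3IP1, BCL9L, IL17B and BBS1, and the groups overlap for TBX5 and CAT, where the fibrous baseline library is the lowest and the highest of its group.

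TBX5, a transcription factor of heart muscle, was the 1 gene called among 17 cardiac transcription factors, whose median was −0.31. It was at 69.9, 25.2, 73.2 and 80.0 CPM at baseline and at 3.54, 16.0 and 38.4 CPM at 1–3 h (−1.89 ± 0.47, adjusted p = 0.0382). It did not pass with swine as a block (adjusted p = 0.0580), and its log2FC without the fibrous libraries, which have little heart muscle RNA, was −2.03 (adjusted p = 0.0930). DDB2, a sensor of DNA damage (−1.68 ± 0.37), and ULK1, the kinase that starts autophagy (−0.89 ± 0.23), also fell and were named after their values were seen. ULK1 had an adjusted p of 0.0546 with the block. Of 226 tested genes whose symbol starts with ZNF, 8 were lowered and 0 raised in edgeR, with a median of −0.24, against 0.781% and 0.842% of all genes. This group was counted after the called genes had been seen.

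Several lowered genes, most of them encoding metabolic enzymes, rested on the fibrous baseline library. PRKAR2B, a regulatory subunit of protein kinase A, was at 16.6, 535, 15.6 and 14.6 CPM at baseline and at 5.04, 11.2 and 49.5 CPM at 1–3 h. Its log2FC of −3.27 ± 0.65 was −0.48 without the 2 fibrous libraries (adjusted p = 0.602). PTGR1, an enzyme of prostaglandin and aldehyde reduction, was at 3.72, 150, 4.10 and 1.17 CPM at baseline, and its log2FC went from −2.98 to 0.36 (adjusted p = 0.801). Catalase (CAT, −1.85 to −0.98), cytosolic isocitrate dehydrogenase (IDH1, −2.15 to −0.88), hormone-sensitive lipase (LIPE, −2.22 to −1.24) and GPD1 (−1.54 to −1.02) stayed lower without passing. With swine as a block, adjusted p was 0.122 for PTGR1, 0.0728 for CAT, 0.0556 for LIPE and 0.0639 for GPD1. ALDH2, the mitochondrial aldehyde dehydrogenase, moved less, from −1.06 ± 0.28 (adjusted p = 0.0469) to −0.89 (adjusted p = 0.20). These 7 genes were named after their values were seen.

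Genes of contraction and matrix had no member called in edgeR. Sarcomere genes had a median of 0.00 over 16 tested, with 0 called in edgeR or DESeq2 and 0 at an unadjusted p under 0.05. No gene carried the symbol MYH7, the other cardiac myosin heavy chain, so the isoform counted as MYH6 is uncertain. MYH6, named as the atrial myosin heavy chain, was at 21880, 19.2, 58930 and 47450 CPM at baseline. TNNT2, cardiac troponin T, was at 2910, 2.14, 9371 and 7042 CPM. At 1–3 h they were at 34.0, 22970 and 43540 CPM and at 6.67, 3764 and 7467 CPM. The lowest value of each group was a fibrous library, and SEs of 1.20 for MYH6 and 1.12 for TNNT2 leave large changes possible. Ion channel and calcium handling genes had a median of −0.41 over 19 tested and 0 called by either tool. The 10 wall stress genes tested had a higher median, 1.43, with 8 higher in mean and 5 at an unadjusted p under 0.05. In edgeR 1 of them was raised, the calcineurin inhibitor RCAN1 (1.69 ± 0.41, adjusted p = 0.0358). FLNC, a Z-disc filamin (2.55 ± 0.94), and XIRP1, a repair protein of the intercalated disc (3.73 ± 1.49), did not pass. Matrix genes had a median of 0.35 over 21 tested and 0 called in edgeR, with 3 at an unadjusted p under 0.05 and 3 raised in DESeq2. COL1A1 spanned 1155 to 13640 CPM at baseline and 282 to 45630 CPM at 1–3 h. The 13 mitochondrially encoded genes had a median of 0.25 and 0 called by either tool, COX1 among them (0.29 ± 0.62).

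The same genes were read at the other timepoints, in mean log2 CPM relative to the same 4 baseline libraries. The median difference of the raised genes was 0.60 in 5 libraries of 0–1 h, 1.91 at 1–3 h, 0.47 in 4 libraries of 2 days and 0.26 in 7 libraries of 14 days. For the 140 lowered genes it was −0.43, −1.33, −0.32 and −0.31. The genes were chosen at 1–3 h, and the timepoints share baseline, so the larger values at 1–3 h are no finding. MYC had a median of 18.8 CPM at 0–1 h, 12.4 at 2 days and 7.38 at 14 days. TP53INP1 had 35.9, 32.1 and 42.5 CPM.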

How the data were processed

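Total RNA of the biopsies was sequenced from stranded libraries. Per the labels and the study's methods, the authors mapped reads to Sscrofa11.1 with STAR and counted reads per Ensembl gene with featureCounts. The deposited values are these counts, not normalized. Column names mark counting without strand, so overlapping genes on opposite strands cannot be told apart, and molecules were not marked. Symbols were given for 15029 of 31907 genes.

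Groups came from the labels. Genes with at least 1 CPM in 20% of the 29 kept apical libraries (5 timepoints) were tested with TMM scaling and edgeR 4.0.16 (R 4.3.3), with timepoint as the only term and Benjamini-Hochberg adjustment, as the study used timepoint alone. SE is log2FC divided by the root of F. Mean log2 CPM used a prior count of 2. Total counts limit precision, and intervals cover no duplicate molecules. DESeq2 1.42.0, limma 3.58.1 (voom), other filters, scalings, library sets and a block for swine were the alternatives. Swine numbers mark the same animal, and deviations of its libraries correlated by 0.110, against −0.0513 between animals. No 2 libraries of a group agreed within sampling noise. The tests were also run on simulated counts with known changes, where false calls stayed near the threshold in edgeR and exceeded it in DESeq2 and voom. Those counts had the same spread for every gene, independent libraries, no differences between animals and no fibrous libraries. They therefore cannot decide between the tools for the real data. The members, lists and named genes were chosen with earlier results of these data known. Named were the 12 raised and 12 lowered genes with the smallest p and the same sign in all 3 swine, up to 5 per list (called first, then the highest mean CPM, with some of those not called given as counts) and the genes the study plots for 1–3 h. Others are marked, and some genes under this rule are not reported here. The fibrous libraries were the baseline library that the study's own sample list leaves out and the library of 1–3 h with the highest summed CPM of 5 genes the study names for its outliers. Promoters and positions came from RefSeq (Sscrofa11.1), which matched 92.3% of tested genes with a symbol.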

Additional observations from a re-analysis of the deposited data

Results flagged for a closer look

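In 28 of 198 sets of values within a group, 1 library lay far from the others by Dixon's test, where chance alone gives about 5%. The sets overlap, since they share libraries and genes. Values are log2 CPM, as list means or single genes.

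The fibrous library of swine 1644 at 1–3 h was the one that stood apart in 13 sets. It was below the other 8 libraries in the means of sarcomere genes (2.15), ion channel genes (3.97), wall stress genes (3.17), cardiac transcription factors (2.86), mitochondrially encoded genes (8.68), cardiomyocyte markers (2.34) and endothelial markers (3.89). It was above them in cytokine receptors (6.56), macrophage markers (6.26), HMOX1 (8.13), ENSSSCG00000014997 (6.29), IDH1 (4.95) and LIPE (6.16).

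The fibrous baseline library of swine 1644 stood apart in another 12. It was below the other 3 in sarcomere genes (2.00), wall stress genes (1.68), cardiomyocyte markers (2.17) and TBX5 (4.67). It was above them in ELMOD3 (6.89), TP53INP1 (6.49), TMEM140 (6.76), STAT3 (7.29), BACH1 (6.12), CAT (8.70), IDH1 (7.04) and PRKAR2B (9.06).

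A library of swine 1640 at 1–3 h was below the others in PPA1 (3.26), KLF6 (5.25) and CSRNP1 (4.07), and was the one with the lowest median over the raised genes.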

How the results depend on the processing

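The fits share most libraries, which favours the direction in which genes were called. The direction of the 291 genes held in all of them that were tested under most alternatives, in 288 when all apical libraries entered, and in 290 where the fibrous libraries, the fibrous baseline library or swine 1644 were left out. The share of tested genes called, 1.62%, did not hold. It was 7.94% with DESeq2, 5.28% (674 genes) with a filter of 5 CPM, 0.832% with no filter, 0.471% (31 raised and 75 lowered) with all apical libraries, 0 with the 13 libraries alone, 0.868% with these and swine as a replicate block, and 0 with counts summed per swine and that block, where 3083 genes had an unadjusted p under 0.05. The block on 29 libraries gave 1.25% (224). Leaving out swine 1640 gave 0.903% (89 raised and 65 lowered) and leaving out swine 1644 or 5385 gave 0, with 2126 and 1559 genes at an unadjusted p under 0.05. Leaving out 1 library gave 0.0447% to 4.26%, or 8 to 760 genes. It was 8 to 36 genes without any 1 baseline library, 584 and 760 without either of 2 libraries of swine 1640 at 1–3 h, and 1.21% to 2.19% of genes otherwise. Without the fibrous libraries it was 0.112% (20) in edgeR, 4.29% (765) in DESeq2, 0.0167% (3) with 2 groups and 0 with the block, where 2330 genes had an unadjusted p under 0.05. DESeq2 called 59 genes for differences between swine. Genes without overlap numbered 268 above baseline with size factors, 318 above and 458 below without the fibrous libraries, and 163 to 280 above and 293 to 481 below without 1 library, where fewer libraries had to be separate. For the other changes the cause was not tested.

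MYH6 turned positive with voom (0.67), with 13 libraries and the block (0.49), with summed counts (0.16) and without swine 5385 (0.72), and spanned −0.85 to 0.026 without 1 library. TNNT2 did so with voom (1.03), all apical libraries (0.038), the block (0.12), 13 libraries and the block (0.69), summed counts (0.35) and without swine 5385 (1.14), and spanned −0.67 to 0.27. COL1A1 was −0.015 with voom and −0.61 to 1.80 without 1 library, and COX1 was −0.050 to 0.57. PTGR1 was 0.36 without the fibrous libraries, 0.44 so in DESeq2, 0.35 so with 2 groups, 0.43 so with the block, 0.28 without swine 1644, and −3.29 to 0.72 without 1 library. Scalings moved the median of all genes between 0.03 and 0.21. The fits without the fibrous libraries in DESeq2, with 2 groups and with the block, and the count of genes without overlap in that set, were chosen after seeing the data. Genes with few baseline counts, such as FOSL1 and KCNH4, are imprecise.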
